A study of Rattus norvegicus with 21 samples.

Results

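The genes described here carry glucose through the cell: the transporters that take it up, the enzymes of glycolysis, the lactate transporters, and the enzymes that store glucose as glycogen or send it into the pentose phosphate pathway. They were chosen as the rows of the count table whose symbol stood on a list of 38 such genes. Of the 38 symbols, 31 had a row among the 17085 gene symbols of the series, and all 31 passed the filter on low counts that left 11742 genes for testing. Hk1, Pfkm, Aldoa, Pgk1, Pgam1, Gbe1 and Pgd were not analysed here.

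Glucose enters the heart muscle cell through GLUT1 (Slc2a1) and the insulin-responsive GLUT4 (Slc2a4), is trapped by hexokinase and is split to pyruvate, which either enters the mitochondrion or leaves the cell as lactate. Many steps are served by several isoforms. Some (Slc2a4, Eno3, Pgam2, Pygm) belong to striated muscle, while others (Slc2a1, Slc2a3, Slc16a3, Hk2, Pfkfb3, Eno1, Ldha, Pdk1) are textbook targets of the hypoxia-inducible factor HIF-1, and Hk3 and the liver isoform Pygl are found in white blood cells.

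The series holds bulk RNA sequencing of infarct-zone tissue from Sprague Dawley rat hearts in 21 libraries, 7 groups of 3. Sham hearts were the controls, and in MI24h the left anterior descending artery stayed ligated for 24 h. In MI1h_R blood flow was restored after 1 h and in MI6h_R after 6 h, and the tissue was taken at 24 h, after 23 h and 18 h of reperfusion. Groups MI24h_F, MI1h_F and MI6h_F matched these injuries and carried an F in their titles, which is not spelled out there. The design text mentions a fenofibrate pretreatment (this drug activates PPARα, a receptor for fatty acids), and no Sham group carried the F. Whether the 3 libraries of each group were separate animals is not stated. If they were not, the p-values measure only the spread between these samples, which may be technical.

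Total counts ran from 12208041 to 18393795 per library. Levels across libraries are given as CPM, a gene's count relative to a library size scaled by the TMM method, in the order of the replicate numbers. Levels across genes are given as the authors' TPM, which account for transcript length. A gene was said to rise or fall where edgeR's quasi-likelihood test, fitted to all 21 libraries, gave a Benjamini-Hochberg adjusted p under 0.05 over all 11742 genes. Log2 fold changes are given with their SE. Slc2a3, Pfkfb4, Gapdh and Pkm each have the same counts in every library as another symbol (LOC100909595, LOC100911725, LOC108351137 and LOC100364062), so neither copy can be told from the other. Transcripts of the mitochondrial genome took 33.5% to 38.5% of the counts in Sham and 11.3% to 20.2% elsewhere, and TMM factors were 0.535 to 0.677 in Sham against 0.996 to 1.17. Without TMM, with library size alone, the median gene moved from 0.07 to 0.80 (log2) in MI24h against Sham, and the share of genes called higher and lower went from 3293 and 3078 to 6484 and 1504. Comparisons with Sham are therefore relative to the median gene. Those between injured groups moved less, from 0.00 to 0.04 for MI1h_R against MI24h and from -0.01 to 0.11 for MI6h_R against MI24h. For MI6h_R against MI1h_R the median moved from -0.01 to 0.07, and to 0.23 with limma on log2(TPM + 1). There the genes called higher and lower went from 135 and 148 to 876 and 90.

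After injury some members of the pathway rose against Sham and others fell. In MI24h against Sham, 16 members rose and 11 fell out of 31, 87.1% against a background of 54.3% of all tested genes, with 28% up and 26.2% down. Against Sham, 12 rose and 14 fell in MI1h_R (background 49.5%, 25.4% up and 24.1% down), and 13 rose and 14 fell in MI6h_R (background 57.2%, 29.3% up and 28% down). These 3 comparisons share the Sham libraries. The split depended on the scaling, with 20 up and 7 down in MI24h, 15 and 9 in MI1h_R and 16 and 11 in MI6h_R with library size alone. On log2(TPM + 1) it was 20 and 7, 16 and 8, and 18 and 8. The median log2 fold change of the members was 1.08 in MI24h, -0.30 in MI1h_R and 0.03 in MI6h_R, beside 0.07, 0.06 and 0.06 over all genes. In all 18 injured libraries 10 members lay above every Sham library (Slc2a1, Slc2a3, Slc16a3, Hk3, Pfkp, Pfkfb4, Eno1, Eno2, Pygl and Tkt), as did 13.8% of tested genes, and 10 lay below (Slc2a4, Slc16a1, Pfkfb2, Gapdh, Pgam2, Eno3, Pdk1, Pgm1, Pygm and Pygb), as did 17.4%.

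**Figure D1:**
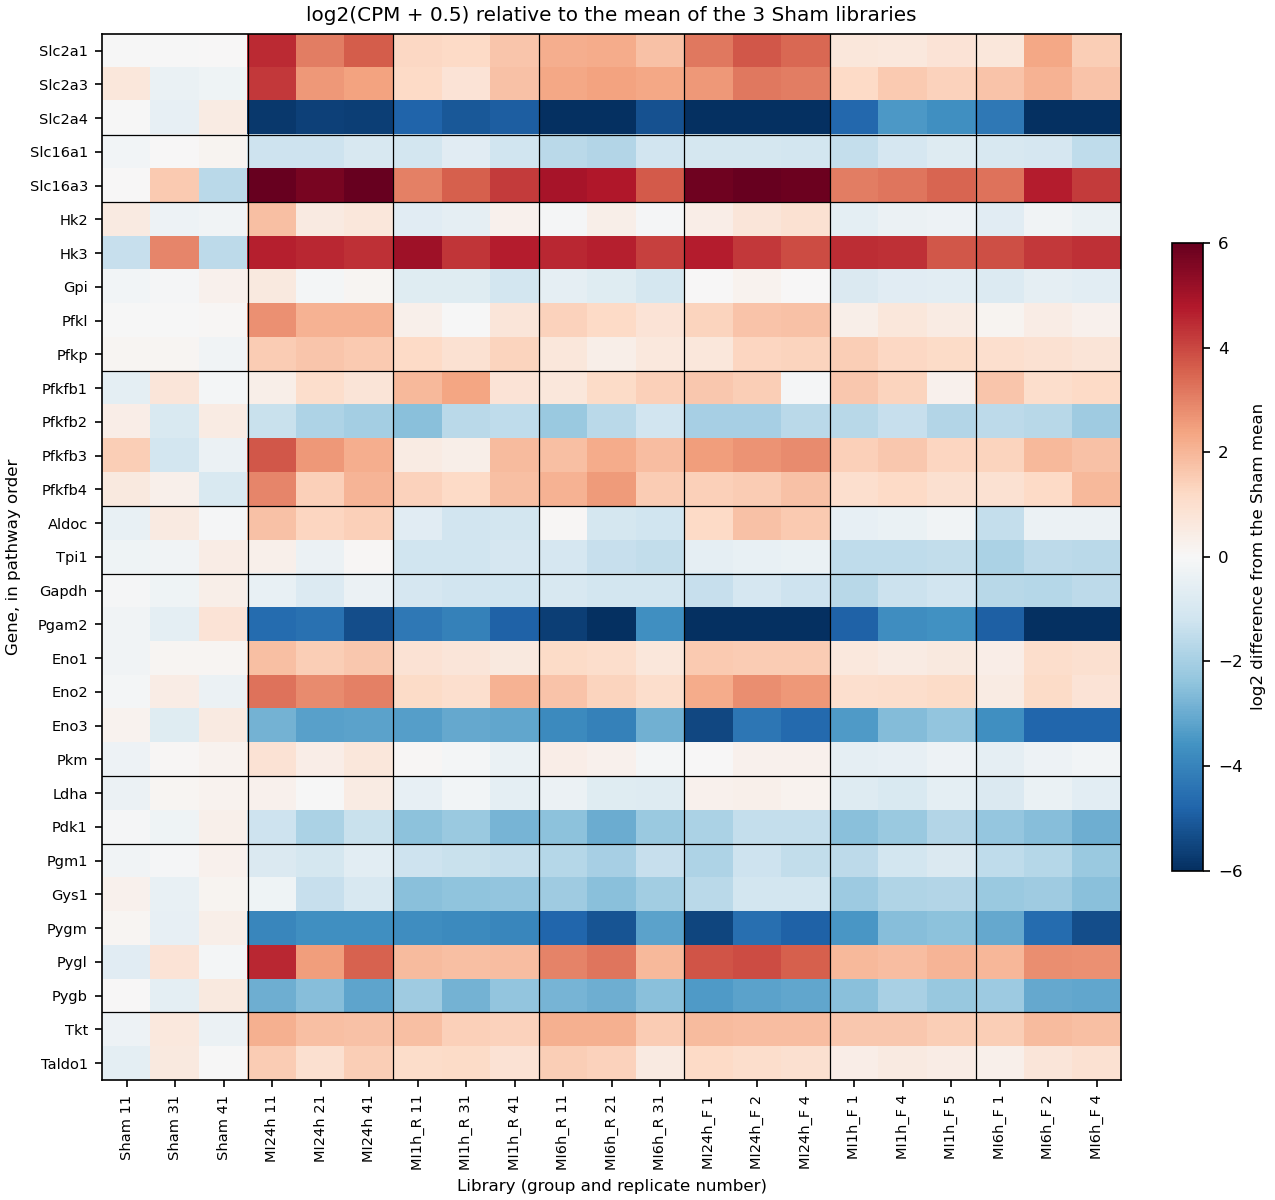
Heat map of the 31 measured genes (vertical, in pathway order) in 21 libraries (horizontal, by group and replicate number), coloured by log2(CPM + 0.5) minus the mean of the 3 Sham libraries. Slc2a4, Pgam2, Eno3 and Pygm are blue in every injured library, and Slc2a1, Slc16a3 and Eno2 are reddest in the 6 permanently ligated libraries MI24h and MI24h_F.

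Permanently ligated and reperfused libraries differed in part of the pathway. Of all 6 permanently ligated libraries (with and without F), every one had more Slc2a1, Slc16a3, Hk2, Gpi, Aldoc, Tpi1, Eno1, Eno2, Ldha and Gys1 than every one of the 12 reperfused libraries. That is 10 of 31 members, against 0.732% of all tested genes. No member had all ligated libraries below all reperfused ones, against 0.179% of tested genes.

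For 5 members the 250 bases before the transcription start are printed, since the binding motif of HIF-1 is short enough to be read in them. These members were chosen by their number of motif copies, so that all 5 hold the motif was fixed by the choice. The sequences are those of RefSeq on the rat assembly GRCr8, in the direction of the gene, whereas the counts were aligned to rn7. Slc2a1, Aldoc, Pfkl and Pygl had the most copies among the members that fell in early reperfused against ligated tissue with and without F. Ldha, level with Slc2a1 for the most copies of any member, was higher in all ligated than in all reperfused libraries. Capitals mark ACGTG and GCGTG in either direction (CACGT and CACGC where they lie on the other strand), and CACGTG is a pair of overlapping copies, 1 on each strand.
Slc2a1, chr5:138002272-138002521, plus strand: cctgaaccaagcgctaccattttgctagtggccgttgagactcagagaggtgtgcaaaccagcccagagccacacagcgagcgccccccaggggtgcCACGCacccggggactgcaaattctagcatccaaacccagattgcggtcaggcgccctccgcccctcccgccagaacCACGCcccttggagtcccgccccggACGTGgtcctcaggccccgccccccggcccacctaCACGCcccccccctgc
Aldoc, chr10:63715294-63715543, plus strand: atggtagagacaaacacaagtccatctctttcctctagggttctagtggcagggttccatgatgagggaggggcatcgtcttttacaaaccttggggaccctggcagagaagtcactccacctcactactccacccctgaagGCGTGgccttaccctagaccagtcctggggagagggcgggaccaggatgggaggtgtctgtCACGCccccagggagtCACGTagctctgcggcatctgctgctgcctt
Pfkl, chr20:10663715-10663964, plus strand: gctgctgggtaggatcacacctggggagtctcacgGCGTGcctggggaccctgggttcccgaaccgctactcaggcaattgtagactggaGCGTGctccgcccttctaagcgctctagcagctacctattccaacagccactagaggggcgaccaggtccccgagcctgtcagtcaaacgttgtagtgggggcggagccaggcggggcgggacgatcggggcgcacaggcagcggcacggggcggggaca
Pygl, chr6:94476220-94476469, minus strand: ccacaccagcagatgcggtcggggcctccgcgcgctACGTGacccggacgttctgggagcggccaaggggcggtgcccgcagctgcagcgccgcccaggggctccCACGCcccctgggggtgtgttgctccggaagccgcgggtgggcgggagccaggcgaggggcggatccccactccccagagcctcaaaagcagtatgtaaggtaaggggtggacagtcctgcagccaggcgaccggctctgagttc
Ldha, chr1:106507842-106508091, plus strand: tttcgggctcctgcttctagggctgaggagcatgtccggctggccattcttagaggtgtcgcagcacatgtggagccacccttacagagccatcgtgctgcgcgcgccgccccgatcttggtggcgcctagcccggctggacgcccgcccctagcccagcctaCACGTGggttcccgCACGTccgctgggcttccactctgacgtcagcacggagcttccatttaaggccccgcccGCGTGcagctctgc

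The Slc2a1 window held 4 copies, at 153, 76, 51 and 16 bases before the start, and the Ldha window 4, of which those at 87 and 86 bases share the letters CACGTG. Aldoc had 3 copies, and Pfkl and Pygl had 2 each. A window was found for 29 of the 31 members, all but Slc2a3 and Slc2a4, and 18 of the 29 (62.1%) held a copy of either motif. Of all RefSeq windows of that length 36.7% did, and of those of protein-coding genes 40.8%. By response, a copy was found in 6 of 11 windows of genes lower in both early reperfusion comparisons (54.5%), 7 of 10 of genes lower in MI24h than in Sham (70%) and 5 of 8 others (62.5%). Among those 11, Hk2, Gpi, Tpi1, Pkm and Slc16a3 held no copy. A match in letters does not show that a factor is bound there.

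Among the glucose transporters, GLUT4 fell and GLUT1 rose. Slc2a4 stood at 459.9, 331 and 664 CPM in Sham and 8.02, 9.04 and 8.84 in MI24h. It read 16.4, 13.1 and 14.8 in MI1h_R and 3.35, 1.45 and 11.8 in MI6h_R. In MI24h_F it read 2.65, 3.62 and 1.69, in MI1h_F 17.1, 42.1 and 36.3 and in MI6h_F 23.2, 5.47 and 1.97. No injured library came near Sham, and within the late reperfused groups a single library, MI6h_R 31 and MI6h_F 1, stood above its neighbours. The log2 fold change against Sham was -5.81 ± 0.78 (adjusted p = 7.67e-06) in MI24h, -5.04 ± 0.75 (adjusted p = 3.21e-05) in MI1h_R and -6.45 ± 0.80 (adjusted p = 3.16e-06) in MI6h_R. In bulk tissue fewer heart muscle cells and less transcript per cell cannot be told apart.

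Slc2a1, the transporter of basal glucose uptake, ran the other way at 29.9, 29.4 and 30.7 CPM in Sham and 669.9, 255 and 384 in MI24h. It read 70.8, 68.2 and 96.7 in MI1h_R and 139.8, 140.2 and 104 in MI6h_R. Its values with F were 271, 397 and 327 in MI24h_F, 48.1, 47.1 and 53.3 in MI1h_F and 47.99, 153 and 84.5 in MI6h_F. The ligated libraries formed the top of the range, MI24h 11 being the highest of all, and early reperfused libraries lay between them and Sham. Slc2a1 rose against Sham by 3.86 ± 0.37 (adjusted p = 4.53e-07) in MI24h, 1.39 ± 0.34 (adjusted p = 0.00262) in MI1h_R and 2.09 ± 0.35 (adjusted p = 6.25e-05) in MI6h_R. Slc2a3 (GLUT3, of neurons and white blood cells) read 11.6, 5.28 and 5.81 CPM in Sham, 145, 45.03 and 39.9 in MI24h, 16.8, 12.99 and 25.5 in MI1h_R and 37.2, 40.2 and 38.04 in MI6h_R. With F it read 45.4, 67.6 and 64.3 in MI24h_F, 16.8, 22.2 and 19.6 in MI1h_F and 24.6, 32.1 and 24.4 in MI6h_F. Its 3 Sham libraries lay below all others, and it rose by 3.33 ± 0.43 (adjusted p = 5.67e-06) in MI24h against Sham.

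Of the TPM of these 3 transporters, Slc2a4 made up 91.2% ± 2.59 in Sham and 1.79% ± 0.892 in MI24h (SD, n = 3 each). Its share was 12% ± 2.05 in MI1h_R, 2.95% ± 3.15 in MI6h_R, 0.594% ± 0.188 in MI24h_F, 26.9% ± 7.84 in MI1h_F and 8.16% ± 10.7 in MI6h_F. MI1h_F had the largest mean share after injury, and the libraries of MI6h_F spread from 1.52% to 20.5%. Slc2a1 held 6.37% ± 1.96 in Sham, 78.1% ± 5.61 in MI24h and 78.1% ± 1.42 in MI24h_F. LOC100909595, which has the same counts as Slc2a3, was not part of the total behind these shares.

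**Figure D2:**
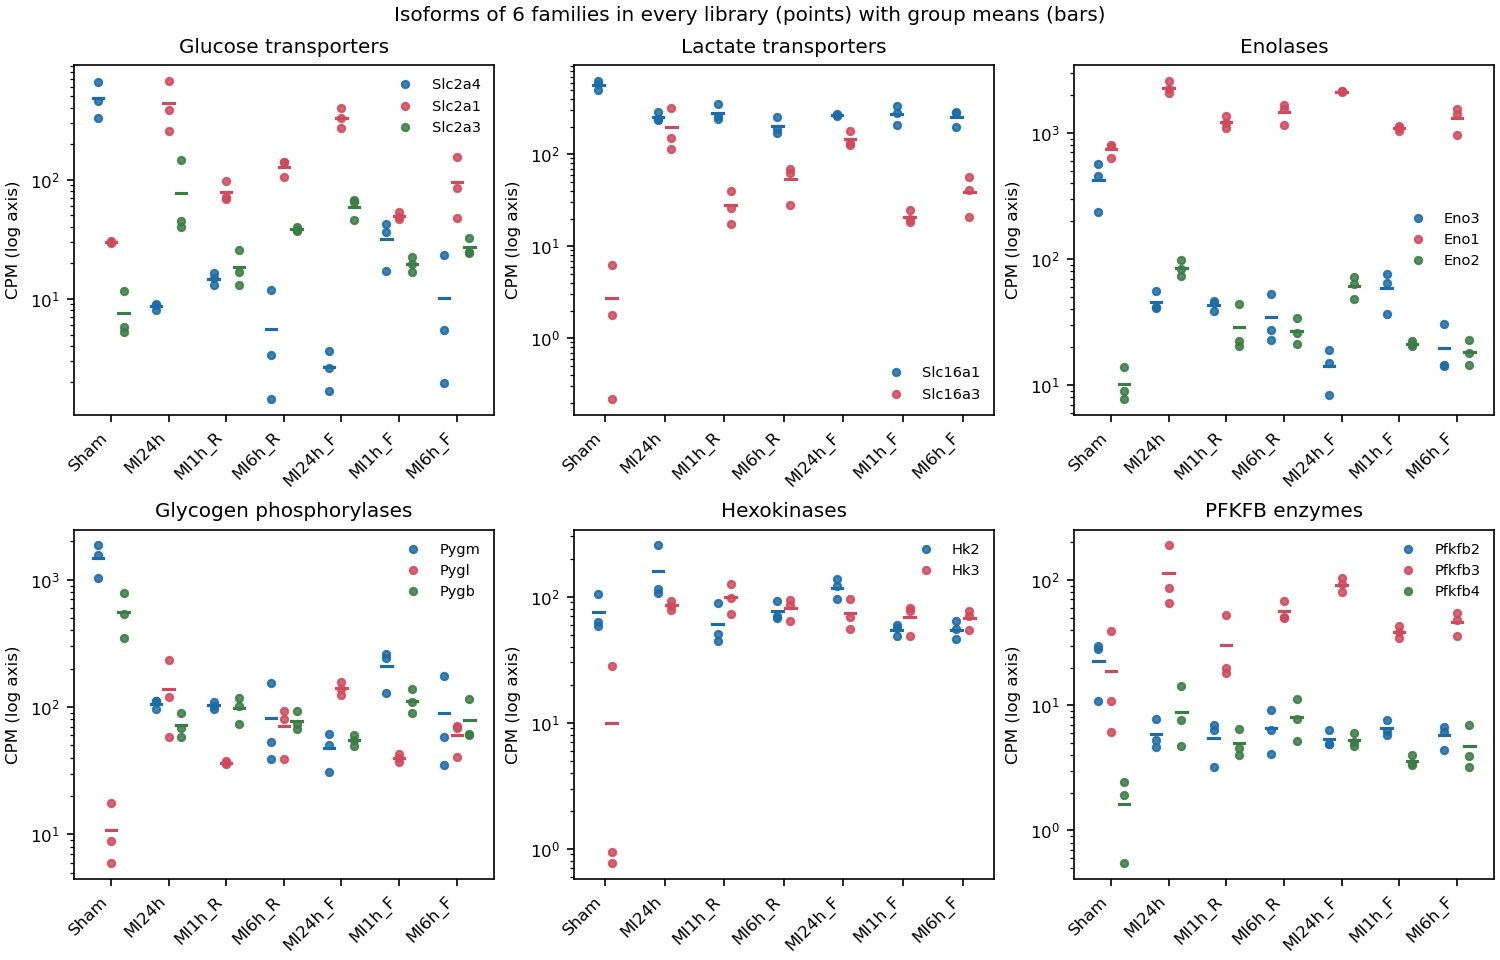
CPM on a log axis in each library (points) and group means (bars) for 6 families; genes are to be compared with themselves across groups, since CPM does not account for length. The Slc2a4 points drop from 331 to 664 CPM in Sham to at most 42.1 after injury, and Slc2a1 peaks at 669.9 in MI24h.

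Of the lactate transporters 1 fell and 1 rose. Slc16a1 (MCT1), the carrier of oxidative tissue, read 505, 573 and 624 CPM in Sham, 238, 240.2 and 289.7 in MI24h, 259, 348 and 245 in MI1h_R and 186, 169 and 256 in MI6h_R. In MI24h_F it read 273, 269 and 261, in MI1h_F 207, 284 and 335 and in MI6h_F 287, 280.2 and 198. All injured libraries lay below Sham, with ligated and reperfused ones intermingled. Slc16a3 (MCT4), the exporter of glycolytic cells, read 1.795, 6.19 and 0.219 in Sham, 322, 115 and 152 in MI24h, 17.6, 25.98 and 39.9 in MI1h_R and 69.1, 62.5 and 27.95 in MI6h_R. Its values with F were 125, 179 and 131 in MI24h_F, 18.2, 19.95 and 24.5 in MI1h_F and 20.6, 57.03 and 40.5 in MI6h_F. The ligated libraries lay above all reperfused ones, and these above all Sham libraries. Slc16a3 rose against Sham by 6.13 ± 0.70 (adjusted p = 1.69e-06) in MI24h, while Slc16a1 fell (-1.15 ± 0.21 (adjusted p = 0.000144)), a call lost with library size alone and on TPM. The size of the rise of Slc16a3 rests on few Sham counts (19, 68 and 2), and was 7.56 without Sham 31 and 5.57 without MI24h 11. Slc16a3 made up 1.27% ± 1.37 of the TPM of both carriers in Sham, 64.1% ± 12.3 in MI24h, 20.7% ± 8.28 in MI1h_R and 40.7% ± 15.8 in MI6h_R (SD, n = 3).

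At the entry of glycolysis, Hk2, the insulin-responsive hexokinase of muscle, read 105, 58.4 and 62.7 CPM in Sham, 255, 107 and 116 in MI24h, 44.5, 50.2 and 88.3 in MI1h_R and 68.2, 91.7 and 70.3 in MI6h_R. With F it read 95.8, 121 and 138 in MI24h_F, 48.7, 56.4 and 59.1 in MI1h_F and 45.7, 63.5 and 54.8 in MI6h_F. The ligated libraries lay above the reperfused ones, MI24h 11 far above the rest, while Sham 11 reached into the range of MI24h_F and the reperfused groups overlapped Sham. Hk2 rose by 1.08 ± 0.32 (adjusted p = 0.00741) in MI24h against Sham, which without MI24h 11 was 0.57 and not called. Hk3, the hexokinase of white blood cells, read 0.945, 28.1 and 0.768 in Sham, 92.98, 84.6 and 77.6 in MI24h, 127, 72.9 and 97.9 in MI1h_R and 86.2, 93.8 and 64.2 in MI6h_R. Sham 31 stood far above the other Sham libraries, and all injured libraries lay above it, with ligated and reperfused ones intermingled. In the groups with F it read 96.1, 69.3 and 55.1 in MI24h_F, 81.02, 76.5 and 48.7 in MI1h_F and 54.6, 69.6 and 77.2 in MI6h_F. The summed CPM of 8 monocyte and macrophage markers was also highest in Sham 31, at 2706 against 566.6 and 605.8, and ran from 3306 to 8820 in injured libraries. That of 9 neutrophil markers was 21.8 to 87.2 in Sham and 250.7 to 3053 elsewhere, with no marker of either list at 0 in any library, and their part in the result was not tested. Hk3 rose by 3.08 ± 0.76 (adjusted p = 0.00218) in MI24h, 3.30 ± 0.76 (adjusted p = 0.00157) in MI1h_R and 3.02 ± 0.75 (adjusted p = 0.00231) in MI6h_R. Without Sham 31 these were 6.63, 6.86 and 6.59, and all 3 calls were lost when only the 2 groups were fitted.

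Phosphofructokinase sets the pace of glycolysis, and its liver isoform Pfkl read 67.6, 66.5 and 70.5 CPM in Sham, 453, 293 and 294 in MI24h, 83.2, 68.1 and 112 in MI1h_R and 179, 159 and 120.3 in MI6h_R. In MI24h_F it read 173, 223 and 232, in MI1h_F 86.3, 108 and 97.4 and in MI6h_F 76.5, 94.2 and 82.4. Ligated libraries were highest within each arm, and MI1h_R overlapped Sham. Pfkl rose by 2.34 ± 0.21 (adjusted p = 3.39e-07) in MI24h against Sham and by 1.16 ± 0.21 (adjusted p = 0.000124) in MI6h_R, and its value in MI1h_R was 0.36 ± 0.21 (adjusted p = 0.15). The platelet isoform Pfkp read 26.7, 26.6 and 21.5 in Sham and 31.4 to 79.3 in the injured libraries.

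The PFKFB enzymes make and break fructose-2,6-bisphosphate, the activator of phosphofructokinase. Pfkfb2, the heart isoform, read 27.97, 10.7 and 29.5 CPM in Sham, 7.797, 5.32 and 4.66 in MI24h, 3.19, 6.39 and 6.98 in MI1h_R and 4.07, 6.32 and 9.21 in MI6h_R. With F its libraries ran from 4.40 to 7.59, and all 18 injured libraries lay below Sham. Pfkfb3, the inducible isoform, read 39.2, 6.097 and 10.9 in Sham, 189, 87.1 and 65.1 in MI24h, 19.7, 18 and 52.9 in MI1h_R and 49.9, 67.9 and 51.2 in MI6h_R. Its values with F were 80.5, 92.6 and 103 in MI24h_F, 38.3, 43.2 and 34.3 in MI1h_F and 35.8, 54.6 and 48.4 in MI6h_F. Sham 11 reached into the range of the reperfused groups, and the 3 MI24h libraries lay above Sham. Pfkfb3 rose by 2.60 ± 0.54 (adjusted p = 0.000584) in MI24h, and Pfkfb2 changed by -1.94 ± 0.38 (adjusted p = 0.000327). Pfkfb3 made up 38.1% ± 17.3 of the TPM of the 4 PFKFB genes in Sham and 86.6% ± 3.21 in MI24h (SD, n = 3). Pfkfb2 made up 53.9% ± 16.1 and 4.17% ± 1.17 in the same groups. LOC100911725, which has the same counts as Pfkfb4, was not part of this total. Pfkfb4 ran from 0.548 to 2.46 CPM in Sham and from 3.19 to 14.3 after injury, and Pfkfb1, the liver isoform, did not exceed 4.14 in any library.

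Further along the upper pathway, the brain aldolase Aldoc was scarce, at 2.83, 6.01 and 3.84 CPM in Sham, 14.7, 10.5 and 11.7 in MI24h, 2.33, 1.52 and 1.65 in MI1h_R and 4.27, 1.69 and 1.49 in MI6h_R. With F it read 9.91, 15 and 13.1 in MI24h_F, 2.69, 2.95 and 3.38 in MI1h_F and 1.195, 3.05 and 3.09 in MI6h_F. The 6 ligated libraries were the 6 highest of all 21. The triosephosphate isomerase Tpi1 read 929, 957 and 1497 in Sham, 1344, 852 and 1141 in MI24h, 481, 486 and 549.7 in MI1h_R and 548, 427 and 393 in MI6h_R. Tpi1 and the glucose-6-phosphate isomerase Gpi did not pass the test in MI24h against Sham, at -0.02 ± 0.20 (adjusted p = 0.943) and 0.23 ± 0.19 (adjusted p = 0.325). With library size alone and on TPM both were called higher in MI24h. In MI1h_R both were lower than in Sham, Tpi1 at -1.16 ± 0.20 (adjusted p = 0.000133), a call lost with library size alone and on TPM. Gpi was at -0.85 ± 0.19 (adjusted p = 0.00126) in MI1h_R and -0.77 ± 0.19 (adjusted p = 0.00217) in MI6h_R, directions that turned to 0.05 and 0.43 on TPM.

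In lower glycolysis the muscle forms fell. Pgam2, the muscle phosphoglycerate mutase, read 569, 443 and 1164 CPM in Sham, 26.9, 29.1 and 16.3 in MI24h, 34.04, 40.1 and 22.4 in MI1h_R and 12.7, 8.73 and 51.7 in MI6h_R. In MI24h_F it read 3.101, 6.61 and 5.504, in MI1h_F 22.3, 50.1 and 52.7 and in MI6h_F 21.8, 5.05 and 5.98. All injured libraries lay below Sham, MI24h_F was lowest as a group, and MI6h_R 31 and MI6h_F 1 were again the highest of their groups. Its log2 fold change against Sham was -4.91 ± 0.70 (adjusted p = 1.42e-05) in MI24h, -4.49 ± 0.68 (adjusted p = 4.07e-05) in MI1h_R and -4.90 ± 0.70 (adjusted p = 1.25e-05) in MI6h_R.

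Among the enolases the muscle form fell while the other forms rose. Eno3, the muscle enolase, read 457, 236 and 568 CPM in Sham, 55.4, 41.1 and 41.5 in MI24h, 38.9, 46.5 and 44.6 in MI1h_R and 27.4, 22.99 and 53.1 in MI6h_R. Its values with F were 8.396, 18.9 and 14.9 in MI24h_F, 36.5, 63.99 and 75.6 in MI1h_F and 30.5, 14.3 and 14.2 in MI6h_F. Sham was above all others by a wide gap, and MI24h_F and MI6h_F held the lowest libraries. Eno1, the ubiquitous enolase, read 631, 799.9 and 783 in Sham, 2569, 2058 and 2227 in MI24h, 1357, 1204 and 1096 in MI1h_R and 1653, 1546 and 1163 in MI6h_R. Eno2, the neuronal enolase, read 9.07, 13.9 and 7.79 in Sham, 98.1, 73.6 and 83.4 in MI24h, 22.3, 20.5 and 43.9 in MI1h_R and 33.8, 25.8 and 21.3 in MI6h_R. With F Eno1 read 2151, 2128 and 2093 in MI24h_F, 1141, 1033 and 1096 in MI1h_F and 966, 1542 and 1417 in MI6h_F. Eno2 read 48.3, 71.9 and 63.9, 20.3, 21.1 and 22.4 and 14.3, 22.6 and 18.1 in the same groups. Both stood in the same order, with ligated libraries above reperfused and reperfused above Sham. In MI24h against Sham Eno3 changed by -3.19 ± 0.42 (adjusted p = 5.88e-06), Eno1 by 1.63 ± 0.19 (adjusted p = 2.01e-06) and Eno2 by 3.05 ± 0.30 (adjusted p = 5.17e-07). Eno3 supplied 40.5% ± 11.9 of enolase TPM in Sham, 2.38% ± 0.165 in MI24h and 0.805% ± 0.305 in MI24h_F, and Eno2 did not exceed 2.76% in any library (SD, n = 3).

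Gapdh, often used as a reference gene, was not steady across these groups. It read 3426, 3015 and 4608 CPM in Sham, 2657, 2051 and 2859 in MI24h, 1804, 1641 and 1590 in MI1h_R and 1877, 1685 and 1697 in MI6h_R. Sham lay above all injured libraries on this scale, but the change in MI24h, -0.55 ± 0.19 (adjusted p = 0.0212), turned to 0.20 with library size alone and to 0.47 on TPM, and without Sham 41 it was -0.36 and not called. Against Sham it was -1.13 ± 0.19 (adjusted p = 0.000111) in MI1h_R and -1.07 ± 0.19 (adjusted p = 0.000125) in MI6h_R. With library size alone both calls were lost, and on TPM the first was lost and the last turned to 0.16. Pkm, the pyruvate kinase of heart and of most dividing cells, rose by 0.64 ± 0.19 (adjusted p = 0.00765) in MI24h, a call lost when only those groups were fitted. It was not called in either reperfused group against Sham, but was called higher in both with library size alone and on TPM.

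At the fate of pyruvate, the lactate dehydrogenase Ldha read 1354, 1885 and 2000 CPM in Sham, 2043, 1670 and 2421 in MI24h, 1242, 1549 and 1130 in MI1h_R and 1356, 1055 and 1010 in MI6h_R. MI24h overlapped Sham (0.23 ± 0.20 (adjusted p = 0.351)) but was called higher with library size alone and on TPM. MI6h_R was lower than Sham (-0.61 ± 0.20 (adjusted p = 0.0141)), a direction that turned to 0.25 with library size alone and to 0.60 on TPM. That call was also lost without Sham 41, MI6h_R 21 or MI6h_R 31. Pdk1, the kinase that shuts pyruvate out of the mitochondrion, read 263, 231 and 335 in Sham, 114, 73.7 and 107 in MI24h, 48.5, 58.7 and 39.2 in MI1h_R and 49.6, 34.5 and 57.4 in MI6h_R. It fell in all 3 injured groups, with log2 fold changes of -1.50 ± 0.25 (adjusted p = 8.16e-05) in MI24h, -2.50 ± 0.26 (adjusted p = 2.05e-06) in MI1h_R and -2.55 ± 0.26 (adjusted p = 5.24e-07) in MI6h_R.

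In glycogen breakdown the muscle and brain isoforms fell and the liver isoform rose. Pygm, the muscle glycogen phosphorylase, read 1566, 1035 and 1859 CPM in Sham, 95.8, 111 and 111 in MI24h, 109.7, 103 and 96.8 in MI1h_R and 53.5, 39.4 and 155 in MI6h_R. With F it read 30.9, 61.7 and 49.98 in MI24h_F, 129, 243 and 261 in MI1h_F and 174, 58 and 35.3 in MI6h_F. The injured libraries were all far below Sham, and those of MI1h_F were among the highest after injury. Pygb, the brain isoform also made in heart, read 533, 347 and 779.7 in Sham, 68.7, 89.3 and 57.7 in MI24h, 119, 73.3 and 103 in MI1h_R and 74.3, 67.4 and 92.7 in MI6h_R. With F it ran from 49.4 to 137.8, highest in MI1h_F 4. Pygl, the liver isoform, read 5.95, 17.7 and 8.88 in Sham, 235, 58.5 and 120.2 in MI24h, 37.9, 35.9 and 36.3 in MI1h_R and 80.6, 93.6 and 39.4 in MI6h_R. In MI24h_F it read 139.5, 157 and 125, in MI1h_F 39.8, 37.3 and 42.5 and in MI6h_F 40.7, 71.4 and 68.6. Sham had the lowest libraries, and of the ligated ones only MI24h 21 fell among the reperfused. In MI24h against Sham Pygm changed by -3.81 ± 0.56 (adjusted p = 1.9e-05), Pygb by -2.94 ± 0.31 (adjusted p = 8.68e-07) and Pygl by 3.66 ± 0.46 (adjusted p = 3.97e-06). Pygl made up 0.696% ± 0.61 of phosphorylase TPM in Sham, 44.3% ± 18.5 in MI24h and 62.6% ± 5.38 in MI24h_F, and 18% ± 1.25 in MI1h_R (SD, n = 3).

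On the side of synthesis, the glycogen synthase Gys1 read 277, 172 and 263 CPM in Sham, 197, 88.4 and 118 in MI24h, 40.2, 42.7 and 44.8 in MI1h_R and 51.8, 39.8 and 53.8 in MI6h_R. MI24h overlapped Sham, and the reperfused groups lay under both. Gys1 was -2.48 ± 0.26 (adjusted p = 2.06e-06) in MI1h_R and -2.29 ± 0.26 (adjusted p = 1.24e-06) in MI6h_R against Sham. In MI24h it was -0.82 ± 0.25 (adjusted p = 0.00944) and the phosphoglucomutase Pgm1 -0.87 ± 0.23 (adjusted p = 0.0033), and both turned to 0.14 on TPM + 1 in limma.

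The 2 measured members of the pentose phosphate pathway, which makes ribose and exchanges sugars with glycolysis, rose in every injured group without F, where ligated and reperfused libraries overlapped. Transketolase (Tkt) read 98.1, 191 and 95.96 CPM in Sham, 528, 424 and 417 in MI24h, 429, 329 and 319.6 in MI1h_R and 542, 529 and 351 in MI6h_R. Transaldolase (Taldo1) read 98.6, 225 and 147 in Sham, 430.2, 290.3 and 419.7 in MI24h, 317, 329.6 and 269 in MI1h_R and 420.3, 381 and 219 in MI6h_R. Sham 31 was the highest Sham library for both, as for Hk3. Tkt was 1.83 ± 0.24 (adjusted p = 6.51e-06), 1.49 ± 0.24 (adjusted p = 6.76e-05) and 1.89 ± 0.24 (adjusted p = 4.19e-06) in the 3 groups against Sham, and -0.34 ± 0.23 (adjusted p = 0.417) in MI1h_R against MI24h.

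Losses of the muscle isoforms were set beside the loss of heart muscle transcripts. The 12 cardiomyocyte markers, none at 0 in any library, summed to 57020 to 113500 CPM in Sham and 6776 to 10030 in MI24h. They summed to 8877 to 12380 in MI1h_R, 3370 to 8854 in MI6h_R, 2074 to 4202 in MI24h_F, 9456 to 15340 in MI1h_F and 2963 to 8639 in MI6h_F. MI6h_R 31 and MI6h_F 1, which stood out for Slc2a4, Pgam2 and Pygm, had the highest sums of their groups. As a log2 ratio to that sum, Slc2a4 lay between -7.43 and -7.38 in Sham and between -11.19 and -8.40 in the 18 injured libraries, and Pgam2 between -7.07 and -6.61 and between -9.47 and -7.42. For both genes the ranges did not overlap, and the injured libraries were lower relative to this sum. The 12 markers did not fall alike, so the ratio depends on which of them make up the sum. Against Sham they ran from -2.07 (Tnnc1) to -5.74 (Pln) in MI24h and from 0.20 (Myl2) to -4.21 (Pln) in MI1h_R. In MI24h Pgam2, at -4.91, lay inside the range of the markers, and Slc2a4, at -5.81, just below it. Pygm lay between -5.93 and -5.61 in Sham and between -6.91 and -5.63 after injury, and Eno3 between -7.92 and -7.39 and between -8.20 and -6.93, both overlapping. Pygb (-7.36 to -7.17 in Sham, -7.44 to -5.39 after injury), Pfkfb2 (-12.37 to -11.42 and -11.81 to -8.72) and Gys1 (-8.75 to -8.12 and -8.18 to -4.76) also overlapped. Pdk1 (-8.40 to -7.94 in Sham, -7.92 to -4.84 after injury) was higher per marker transcript in every injured library, though by only 0.02 between the nearest libraries, and other cells than heart muscle express it too. By 2-sided exact permutation tests of the mean ratio, adjusted over these 8 genes, Slc2a4 (-2.33), Pgam2 (-1.75) and Pygm (-0.46) were lower after injury, with adjusted p = 0.00301, 0.00301 and 0.0378. Pygb (0.84), Pfkfb2 (1.72), Pdk1 (1.41) and Gys1 (1.72) were higher, with adjusted p = 0.0341, 0.00401, 0.0301 and 0.0301. Eno3 (-0.11) did not pass, with adjusted p = 0.62. For the genes with a higher ratio, transcript from other cells and more transcript per heart muscle cell cannot be told apart in bulk tissue.

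**Figure D3:**
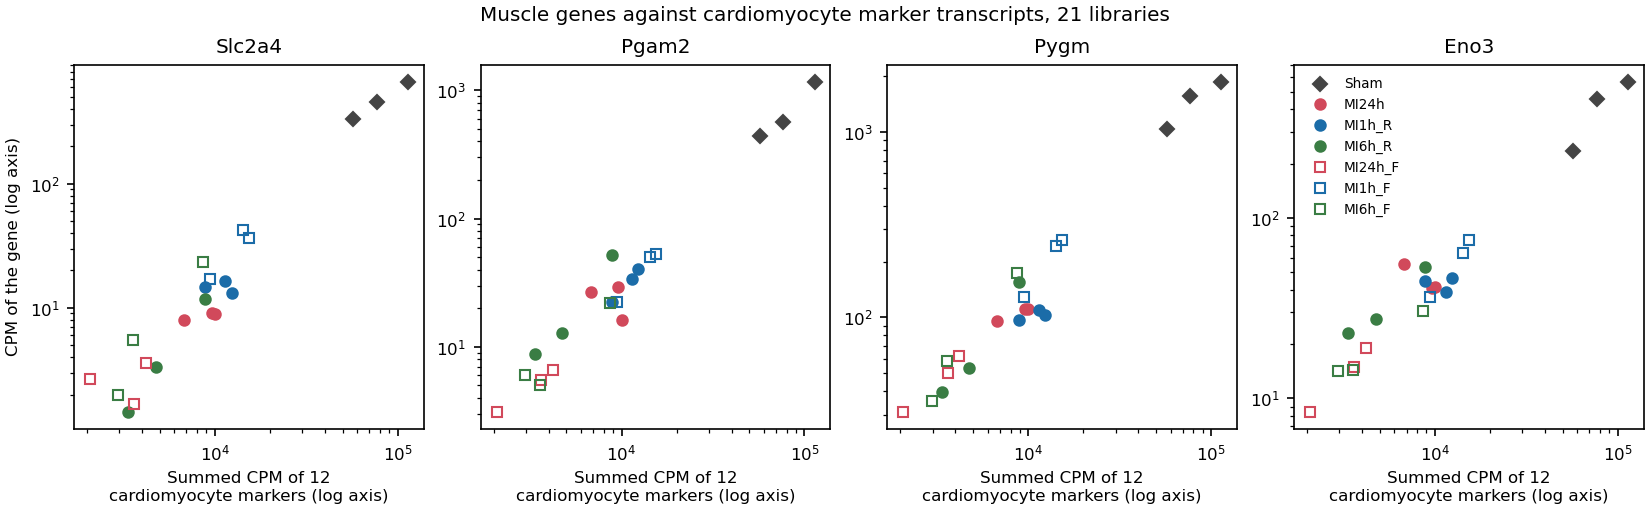
CPM of 4 muscle genes (vertical, log axis) against the summed CPM of 12 cardiomyocyte markers (horizontal, log axis) in 21 libraries; filled points are groups without F and open squares groups with F. Eno3 keeps a ratio to the markers (log2) of -8.20 to -6.93 after injury, overlapping Sham, whereas Slc2a4 drops to -11.19 to -8.40.

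The shift between isoforms was tested as a log2 ratio of TPM (with 0.1 added) for the 10 pairs of the 15 listed in which both genes had a row, by 2-sided exact permutation tests with p-values adjusted over 40 tests. Injured against Sham libraries (18 and 3), all 10 ratios were higher, with an adjusted p between 0.00376 and 0.00902. The smallest p that the permutations allow is 0.000752 before adjustment. For Hk3 to Hk2 the libraries overlapped, with Sham 31 at -0.76 above MI24h 11 (-1.17) and MI24h_F 4 (-1.03). For Pygb to Pygm Sham 41 and MI1h_F 5 both read -1.73. The ratio of Slc2a1 to Slc2a4 differed by 7.95, that of Slc2a3 to Slc2a4 by 8.0, Pygl to Pygm by 6.74, Slc16a3 to Slc16a1 by 6.02 and Eno2 to Eno3 by 5.37. Between early reperfused and ligated libraries (6 and 6, permuted within the arms with and without F), 8 ratios were lower and 1, Hk3 to Hk2, was higher, leaving Pygb to Pygm at -0.32 (adjusted p = 0.353, exact permutation). The largest was Slc2a1 to Slc2a4 at -4.66 (adjusted p = 0.00909, exact permutation), 1.61 ± 1.01 against 6.26 ± 0.96 (SD, n = 6). These values pool 2 arms whose group means differed. The means of that ratio were 2.42 in MI1h_R and 5.55 in MI24h, but 0.79 in MI1h_F and 6.97 in MI24h_F. For Eno1 to Eno3 they were 4.49 and 5.32 without F, and 3.95 and 6.98 with F. The arms were not tested apart. For late reperfusion 4 ratios passed, namely Slc16a3 to Slc16a1 at -1.69, Pfkfb3 to Pfkfb2 at -1.01, Eno2 to Eno3 at -1.68 and Hk3 to Hk2 at 0.93. Late against early reperfusion, Slc2a1 to Slc2a4 was higher by 2.77 and Slc2a3 to Slc2a4 by 2.80. That last count of 2 depends on single libraries: it was 1 without MI1h_F 4 or MI1h_F 5, 6 without MI6h_F 1 and 8 without MI6h_R 31.

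**Figure D4:**
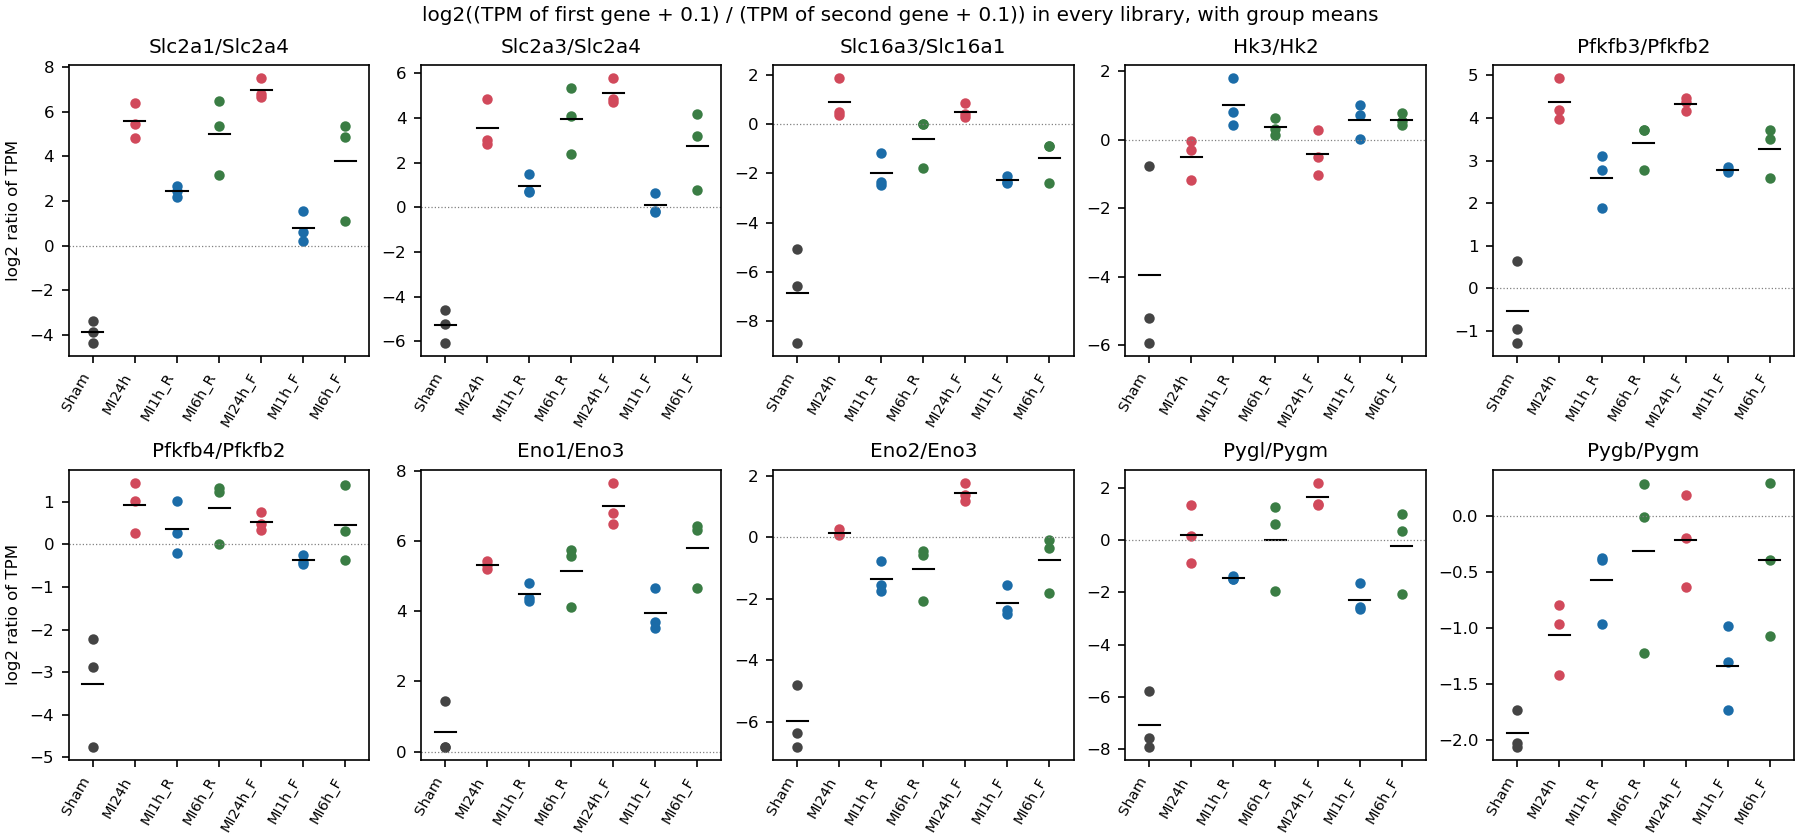
Log2 ratio of TPM of the first to the second gene of 10 isoform pairs in each library (points: grey Sham, red ligated, blue early and green late reperfused) with group means (bars). All 18 injured libraries lie above the Sham mean in each panel, and early reperfused libraries lie below ligated ones for Slc2a1/Slc2a4 (0.21 to 2.67 against 4.82 to 7.48).

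Early reperfusion was compared with permanent ligation to ask which genes differ where blood flow had been restored. In MI1h_R against MI24h 15 of 31 members fell and none rose, 48.4% against a background of 4.32% (1.51% up and 2.81% down), with a median of -0.81 beside 0.00 over all genes. Slc16a3 changed by -2.82 ± 0.58 (adjusted p = 0.0114), Slc2a1 by -2.47 ± 0.35 (adjusted p = 0.00185), Slc2a3 by -2.05 ± 0.40 (adjusted p = 0.00859), Pfkl by -1.98 ± 0.21 (adjusted p = 0.000243), Pygl by -1.91 ± 0.42 (adjusted p = 0.0161) and Pfkfb3 by -1.91 ± 0.53 (adjusted p = 0.0465). Without MI24h 11 Slc2a3 was at -1.20 and not called, and Hk2 was at -0.87 in place of -1.38. Hk2, Gpi, Aldoc, Tpi1, Eno1, Eno2, Pkm, Pdk1 and Gys1 fell as well, from -0.81 for Pkm to -2.74 for Aldoc. The muscle isoforms did not pass: Slc2a4 was at 0.77 ± 0.66 (adjusted p = 0.53), Pgam2 at 0.42 ± 0.60 (adjusted p = 0.728), Eno3 at -0.09 ± 0.39 (adjusted p = 0.923) and Pygm at -0.04 ± 0.50 (adjusted p = 0.973). The count was 7 without MI24h 11 or MI1h_R 31, where Slc2a3, Slc16a3, Hk2, Pfkfb3, Eno1, Pkm, Pdk1 and Pygl were lost, and 10 without MI1h_R 11. It was 0 when the 2 groups were fitted alone, where no gene at all was called.

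The same comparison with F took its fold changes from other libraries. Both comparisons share 1 estimate of the spread, from all 21 libraries, so their calls are not independent. In MI1h_F against MI24h_F 13 members fell and 5 rose (58.1% against a background of 15.6%, 8.87% up and 6.74% down), with a median of -0.64 beside 0.03. Slc2a1 changed by -2.74 ± 0.35 (adjusted p = 0.000677), Slc16a3 by -2.80 ± 0.58 (adjusted p = 0.00592), Pygl by -1.82 ± 0.42 (adjusted p = 0.00968), Slc2a3 by -1.60 ± 0.40 (adjusted p = 0.0136) and Eno2 by -1.53 ± 0.28 (adjusted p = 0.00344). Of the 15 members lower without F and the 13 lower with F, 12 were shared (80% and 92.3%), against 1.6% of all tested genes that were lower in both. They were Slc2a1, Slc2a3, Slc16a3, Hk2, Gpi, Pfkl, Aldoc, Tpi1, Eno1, Eno2, Pkm and Pygl, and Ldha passed with F but not without it. The 5 that rose were Slc2a4 at 3.57 ± 0.74 (adjusted p = 0.00592), Pgam2 at 3.03 ± 0.66 (adjusted p = 0.00778), Pygm at 2.15 ± 0.52 (adjusted p = 0.0122), Eno3 at 2.06 ± 0.40 (adjusted p = 0.00469) and Pygb at 1.03 ± 0.29 (adjusted p = 0.0251). Pkm was lost without any 1 of the 6 libraries, Pygb without any but MI1h_F 1, Hk2 without any but MI24h_F 1, and Pygm without MI24h_F 1. In MI1h_F against MI24h_F 10 of 12 cardiomyocyte markers rose too, with a median of 1.93, against 1 of 12 in MI1h_R against MI24h, and their part in the result was not tested. Neutrophil markers fell for 6 of 9 with F and 3 of 9 without.

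**Figure D5:**
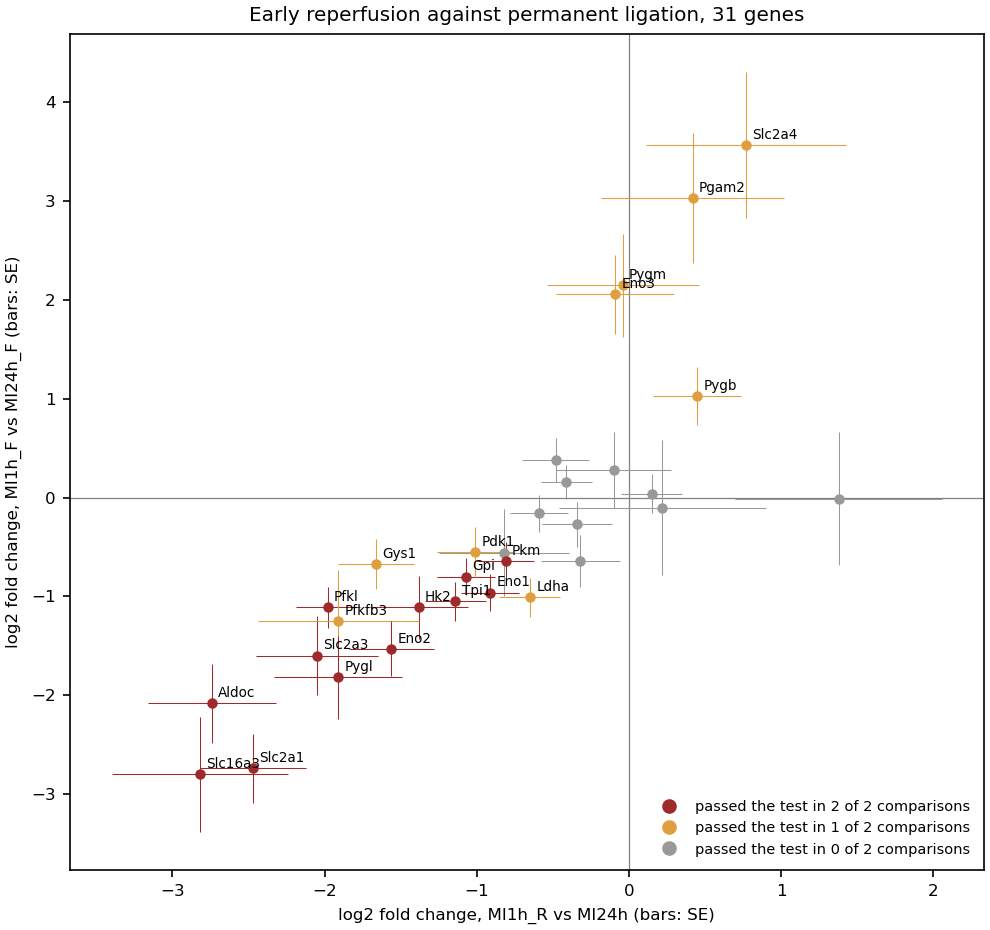
Log2 fold change of each of 31 genes in MI1h_R against MI24h (horizontal) and in MI1h_F against MI24h_F (vertical), with SE bars, coloured by the number of comparisons in which it passed. The 12 genes that fell in both lie at lower left, and Slc2a4, Pgam2, Pygm, Eno3 and Pygb, which rose with F, lie at 1.03 or above on the vertical axis and between -0.09 and 0.77 on the horizontal.

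Fewer members passed in the comparisons of late reperfusion, where fewer genes passed in all. The median of the members was -0.81 in MI6h_R against MI24h, the same as in MI1h_R against MI24h. In these comparisons 18 and 19 members had an unadjusted p under 0.05 in edgeR. With F the medians were -0.53 for late and -0.64 for early reperfusion, with 17 and 22 such members. In MI6h_R against MI24h 8 fell and none rose (25.8% against a background of 0.502%, 0.111% up and 0.392% down), namely Eno2 at -1.66 ± 0.28 (adjusted p = 0.00869), Slc2a1 at -1.77 ± 0.34 (adjusted p = 0.0196), Gys1 at -1.47 ± 0.25 (adjusted p = 0.00877), Tpi1 at -1.29 ± 0.20 (adjusted p = 0.00515), Pfkl at -1.18 ± 0.21 (adjusted p = 0.00981) and Pfkp at -1.03 ± 0.17 (adjusted p = 0.00869), with Aldoc and Gpi. The count was 2 without MI24h 11, 1 without MI6h_R 21, 3 without MI6h_R 31 and 0 when the 2 groups were fitted alone. With library size alone the calls of Pfkl and Pfkp were lost. In MI6h_F against MI24h_F 5 fell and none rose (background 0.485%, 0.145% up and 0.341% down): Slc2a1, Pfkl, Aldoc, Tpi1 and Eno2, from -1.21 for Tpi1 to -2.37 for Aldoc. All 5 were among the 8 (100% and 62.5%), against 0.162% of tested genes lower in both. The count with F was 0 without MI24h_F 2, MI24h_F 4, MI6h_F 1 or MI6h_F 4. Slc16a3, at -1.88 ± 0.56 (adjusted p = 0.185) without F and -1.88 ± 0.56 (adjusted p = 0.185) with F, did not pass, although no library of the groups overlapped in either comparison.

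Late and early reperfusion differed in 1 member without F, Pfkl, at 0.80 ± 0.21 (adjusted p = 0.0469) (background 2.41%, 1.15% up and 1.26% down), a call lost without any 1 of MI1h_R 11, MI1h_R 31, MI6h_R 11 and MI6h_R 21. With F edgeR called 0 members and 0 of all genes (background 0%), with 7 members at an unadjusted p under 0.05, and DESeq2 called 1, Eno3. Without MI6h_F 1, the library with the most cardiomyocyte marker transcript of its group, edgeR called 5 members (Slc2a1, Slc2a4, Pgam2, Eno3 and Pygm).

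F itself was compared at each injury. In MI24h_F against MI24h 4 of 31 members fell, 12.9% against a background of 13% (5.19% up and 7.78% down): Pgam2 at -2.24 ± 0.65 (adjusted p = 0.0315), Eno3 at -1.70 ± 0.40 (adjusted p = 0.0121), Pfkl at -0.73 ± 0.20 (adjusted p = 0.0271) and Gapdh at -0.68 ± 0.19 (adjusted p = 0.0271). The share is near that of all genes, and 4 of 12 cardiomyocyte markers fell there with a median of -1.36. Without MI24h_F 1 the count was 0, without MI24h 11 it was 1, and without MI24h_F 2 or MI24h_F 4 it was 2. In MI1h_F against MI1h_R edgeR and DESeq2 called 0 members (background 0.0766%, 0.0255% up and 0.0511% down, with 2 members at an unadjusted p under 0.05). In MI6h_F against MI6h_R Pfkl alone fell, at -0.85 ± 0.21 (adjusted p = 0.0172) (background 9.62%, 3.92% up and 5.71% down), a call lost without MI6h_R 11, MI6h_R 21 or MI6h_F 1. Whether the effect of F differed between injuries was tested by interaction, and edgeR called 0 members in each of 3 tests (background 0%, 0% and 0.00852%; 8, 2 and 2 members at an unadjusted p under 0.05). DESeq2 called 1, Eno3, between early reperfusion and ligation, where edgeR gave 2.14 ± 0.55 (adjusted p = 0.161).

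The rest of the pathway was read from a list of 50 further genes, of which 40 had a row and 37 were tested. Against Sham 8 rose and 21 fell in MI24h, 5 and 20 in MI1h_R and 7 and 21 in MI6h_R, with medians of -0.85, -0.82 and -1.12. Over all genes 28% rose and 26.2% fell in MI24h, 25.4% and 24.1% in MI1h_R and 29.3% and 28% in MI6h_R. Among those that fell in MI24h was Pdp1, a pyruvate dehydrogenase phosphatase, at -1.74 ± 0.18 (adjusted p = 7.61e-07). Galactose mutarotase (Galm) was at -1.95 ± 0.23 (adjusted p = 2.14e-06), the pyruvate dehydrogenase kinase Pdk2 at -3.26 ± 0.40 (adjusted p = 3.1e-06) and Ldhb, the lactate dehydrogenase subunit of heart, at -3.39 ± 0.48 (adjusted p = 1.48e-05). The ADP-dependent glucokinase Adpgk rose by 1.17 ± 0.19 (adjusted p = 4.6e-05), the glycogen-targeting phosphatase subunit Ppp1r3b by 2.06 ± 0.35 (adjusted p = 9.29e-05) and the kinase Pdk3 by 1.97 ± 0.35 (adjusted p = 0.000126). In MI1h_R against MI24h 2 rose and 1 fell (background 1.51% up and 2.81% down): Slc16a7 (MCT2) rose by 1.83 ± 0.44 (adjusted p = 0.0243), Galm by 1.46 ± 0.23 (adjusted p = 0.00254), and Ppp1r3b was at -1.77 ± 0.35 (adjusted p = 0.00866). With F 8 rose and 4 fell in that comparison (background 8.87% up and 6.74% down), Slc16a7 again among the first, with Galm at 0.83 ± 0.22 (adjusted p = 0.0189), Ppp1r3b at -1.91 ± 0.35 (adjusted p = 0.00329), Pdk2 at 1.84 ± 0.38 (adjusted p = 0.00592) and Ldhb at 1.89 ± 0.46 (adjusted p = 0.0119).

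Genes of the hypoxia response outside the pathway (Vegfa, Adm, Bnip3, Egln3, Egln1, Ankrd37, Ndrg1 and Lox, 8 of 11 listed with a row) were compared between the same groups. In MI1h_R against MI24h 7 of 8 fell (background 2.81%) with a median of -1.88, and in MI1h_F against MI24h_F 6 of 8 (background 6.74%) with a median of -1.57. In MI6h_R against MI24h 5 of 8 fell (background 0.392%), and in MI6h_F against MI24h_F 1 (background 0.341%). Their summed CPM was 1129 to 2651 in MI24h, highest in MI24h 11, which was also the highest library for Slc2a1, Slc16a3 and Pygl, and 555.6 to 607.6 in MI1h_R. In Sham it was 1310 to 1739, inside the range of MI24h. Against Sham, Adm, Ankrd37, Ndrg1 and Lox rose in MI24h (background 28% up), and Vegfa, Bnip3, Egln3 and Egln1 were not called. These last genes fell against Sham in both MI1h_R and MI6h_R (background 24.1% and 28% down), and Adm fell in MI1h_R. Ndrg1 and Lox rose in both (background 25.4% and 29.3% up), and Ankrd37 was called in neither.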

How the data were processed

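Gene-level RNA sequencing values of rat infarct-zone tissue were used. Per the labels' protocols, mRNA was purified from DNase-treated total RNA, made into libraries with a NEBNext Ultra kit and sequenced on an Illumina HiSeq. Per the submitters' processing notes, the authors used STAR 2.7.3a and RSEM 1.3.1 with genome build rn7. The annotation and the strandedness of counting are not given in the sources used here. The authors deposited expected counts, estimated by RSEM and present in the file as whole numbers, and TPM per gene and library.

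Genes were filtered with filterByExpr, library sizes scaled by TMM, and 12 comparisons of groups and 3 interactions fitted with edgeR 4.0.16 (R 4.3.3) over all 21 libraries, with Benjamini-Hochberg adjustment over 11742 genes and calls at an adjusted p under 0.05. Isoform ratios were log2 of TPM + 0.1, with exact permutation tests (Python 3.11.15). Only the edgeR step was run on simulated counts, with known changes between MI1h_R and MI24h. The permutation tests and the motif search were not. The members and all lists were chosen with earlier results of these data known. Named with full statistics were up to 6 called members per direction with the largest log2 fold change and a mean CPM of at least 10, and the isoforms set against each other. Alternatives were other scalings and filters, limma 3.58.1 on log2(TPM + 1) and log2(TPM + 0.1), DESeq2 1.42.0, a replicate block, fits of the compared groups alone and each library left out. Some group labels of MI1h_R and MI6h_R are shortened, and the titles were followed. A result for a further pathway gene is not reported here.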

Additional observations from a re-analysis of the deposited data

How the results depend on the processing

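Counts of members called in either direction kept within 1.5 times of those reported for the 3 comparisons with Sham under every alternative run (25 to 27 for MI24h, 24 to 28 for MI1h_R and 24 to 28 for MI6h_R when each library was left out). Directions against Sham depended on scaling: those called lower went from 11 to 7 in MI24h with library size alone and with limma on TPM, and from 14 to 8 in MI1h_R and in MI6h_R with limma. With library size alone Gapdh in MI24h turned to 0.20, and in MI6h_R Gpi turned to 0.11 and Ldha to 0.25. With limma on log2(TPM + 1), in MI24h Gapdh turned to 0.47, Pgm1 to 0.14 and Gys1 to 0.14, in MI1h_R Gpi to 0.05, and in MI6h_R Gpi to 0.43, Gapdh to 0.16 and Ldha to 0.60. With TPM + 0.1 Pgm1 was 0.15 and the other 6 values were the same. The median of all genes against Sham moved to 0.80, 0.82 and 0.91 with library size alone and to 0.83, 0.72 and 0.99 on TPM + 1.

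Between injured groups, counts depended on which libraries and terms were fitted. Fitting only the groups compared gave 0 members for MI1h_R against MI24h, 0 for MI6h_R against MI24h and 0 for MI6h_R against MI1h_R, but 21 for MI1h_F against MI24h_F, with all 18 kept, and 4 for MI6h_F against MI24h_F. With the replicate block these were 0, 0 and 0 as well, and MI1h_F against MI24h_F gave 10 and MI6h_F against MI24h_F 9. The labels state no batch and no pairing by replicate number. Deviations of same-numbered libraries from their group means correlated between -0.538 and 0.32 over 13 pairs without F and between -0.332 and 0.148 over 7 pairs with F. In these sets 1 of 12 and 0 of 9 libraries correlated best with their own number. With 3 libraries in each group, this check cannot tell whether same-numbered libraries were paired. For MI6h_R against MI24h limma gave 5 (TPM + 1) and 2 (TPM + 0.1) members. For MI6h_R against MI1h_R the count was 0 with library size alone, 3 and 2 with limma and 2 with DESeq2, and for MI6h_F against MI6h_R it was 3 with each of library size alone, both limma settings and DESeq2. DESeq2 gave 11 for MI6h_F against MI24h_F, 1 for MI6h_F against MI1h_F and 1 for the F effect in MI1h_R against that in MI24h. The cause of these differences was not tested.

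Leaving out each library gave 7 to 16 members for MI1h_R against MI24h, 1 to 10 for MI6h_R against MI24h, 0 to 1 for MI6h_R against MI1h_R, 0 to 3 for MI24h_F against MI24h, 0 to 1 for MI6h_F against MI6h_R, 15 to 16 for MI1h_F against MI24h_F, 0 to 5 for MI6h_F against MI24h_F and 0 to 5 for MI6h_F against MI1h_F. It gave 10 isoform pairs in each case for injured against Sham, 8 to 9 for MI1h against MI24h, 4 to 5 for MI6h against MI24h and 1 to 8 for MI6h against MI1h. Depth limited Pfkfb1, Aldoc and Pfkfb4, with under 20 CPM in every library.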

Other observations

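Members found in white blood cells were also read against the summed CPM of 9 neutrophil markers, as a log2 ratio in each library. Pygl lay between -2.30 and -1.87 in the 3 Sham libraries and between -4.91 and -2.75 in the 18 injured ones, and Tkt between 1.13 and 2.17 and between -2.53 and 0.57, without overlap. Slc2a3 lay between -4.05 and -0.91 in Sham and between -6.16 and -3.50 after injury, and Hk3 between -5.52 and -1.63 and between -5.04 and -1.71, both overlapping. The part of these markers in the results for the 4 genes was not tested.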
